A study of Homo sapiens with 9 samples.

Results

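The KLF and MYC reprogramming factors were examined as RNA carried by extracellular vesicles of human embryonic stem cells (hESCs). They were defined as every probe set that the array annotation pairs with KLF2, KLF4, KLF5, KLF6, KLF17, MYC, MYCN, MYCL or MAX, which gave 30 of the 54675 probe sets and 9 of the 19775 genes with a probe set of their own. KLF6 and MAX have 5 probe sets each, MYCN has 10, KLF2, KLF4, KLF5 and MYCL have 2 each, and KLF17 and MYC have 1 each. Of these 30 probe sets, 15 carry a name ending in _s_at or _x_at, which marks probes that can also bind other transcripts, and 5 of the 10 MYCN probe sets were designed from the same database entry.

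KLF proteins are zinc finger transcription factors that bind GC-rich promoter elements. KLF4 and MYC belong to the set of factors used to return somatic cells to pluripotency, and in mouse embryonic stem cells KLF2, KLF4 and KLF5 act together to keep the cells in self-renewal. MYC, MYCN and MYCL are closely related proteins of the helix-loop-helix leucine zipper type, which bind DNA as dimers with MAX and raise the expression of genes for growth, ribosome assembly and metabolism.

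All vesicles came from H9, an established line of hESCs, which was grown without serum or feeder cells in mTeSR1 on Matrigel. Conditioned medium was taken at 80% confluence after 24 hours of culture. There were 3 arrays for each vesicle type, which the methods describe as biological samples. Microvesicles (MVs) are the larger vesicles shed from the cell surface and were pelleted for 1 hour at 16500g, after clearing spins that the protocol gives as 300g and 2800g. Exosomes (EXOs) are the smaller vesicles and were pelleted from the remaining supernatant for 2 hours at 120000g. Non-fractionated vesicles (hESEVs) were pelleted for 2 hours at 120000g straight after the 300g spin, according to the sample labels, so that they hold both kinds and were not cleared of apoptotic bodies. The study's methods describe other and faster spins for hESEVs, and the sources do not settle which were used for the arrays. The pellets are defined by spin and not by a marker, and neither the parent cells nor unconditioned medium were on arrays analysed here.

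Every value below is a MAS5 signal, which is a linear intensity, and each array was scaled to a target of 500. To judge whether a signal stood above what the array gives for RNA that hESCs should lack, a list of 90 tissue-restricted genes (liver, muscle, blood, eye and others) was used, of which 73 were measured. The 90th percentile of their signals was taken as the background level, and it was 939 in MVs, 1256 in EXOs and 1043 in hESEVs. Markers of embryonic stem cells were above it for 10, 6 and 9 of 12 measured genes in MVs, EXOs and hESEVs, and those of germ layers and trophectoderm for 1, 2 and 2 of 22. Fibroblast and epithelial markers, several of which hESCs express, were above it for 8, 3 and 8 of 18. Summed over the list on each array, signals of the tissue-restricted genes ranged between 31047 and 32933 in MVs, between 43105 and 44814 in EXOs and between 41051 and 42057 in hESEVs. The ratio of the 3′ to the 5′ control probe sets of GAPDH lay between 2.88 and 2.90 in MVs, between 1.39 and 1.71 in EXOs and between 1.89 and 2.22 in hESEVs, and that of ACTB between 22.5 and 25.2, between 5.64 and 6.80 and between 8.48 and 10.2. Both measures differed between vesicle types without overlap, and their part in the results below was not tested. Equal amounts of RNA were amplified and labeled, and the arrays were scaled to 1 target. A signal thus gives a share of the amplified RNA and not an amount in the pellet. Fewer vesicles with an mRNA cannot be told apart from less of it in each vesicle. The paper found much longer RNAs in MVs than in EXOs, and the part of RNA length in the results below was not tested.

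Most of the KLF and MYC probe sets gave dim signals. Only 4 of the 30, for KLF4, MYCN, MYCL and MAX, had a mean above the background level in at least 1 vesicle type, and the other 26 did in none. KLF4 and MYCL were above it in MVs, EXOs and hESEVs alike, and MYCN and MAX in MVs only. The means of MYC, KLF2, KLF5, KLF6 and KLF17 stayed under the background level in every vesicle type. Of the 270 single values, 26 lay under 32, the signal to which lower values were raised before testing.

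**Figure D1:**
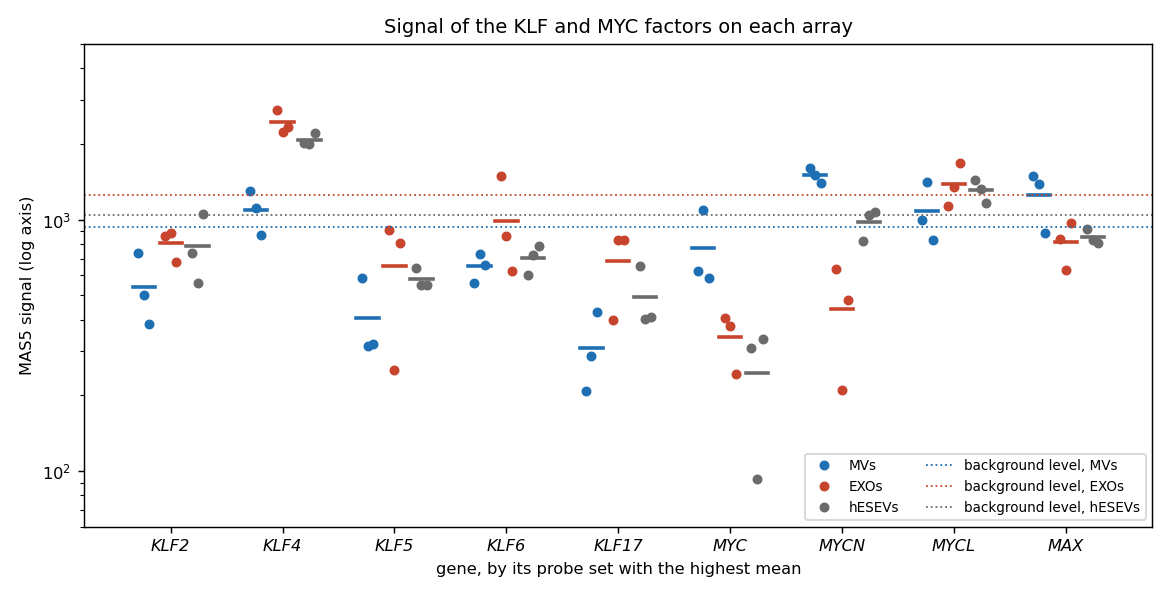
MAS5 signal on a log axis of each KLF and MYC gene, by its probe set with the highest mean over all arrays. Points are arrays, horizontal bars are means of 3 arrays, and MVs, EXOs and hESEVs stand left to right within each gene. Dotted lines mark the background level of 939 in MVs, 1256 in EXOs and 1043 in hESEVs. KLF4 has its lowest signals in MVs, and MYCN its highest.

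KLF4 and MYCN, which encode a zinc finger factor and a MYC family factor, differed between the fractions in opposite directions. The signal of KLF4 was 2.24-fold lower in MVs than in EXOs, and that of MYCN was 3.75-fold higher. MYCN lay under the background level in EXOs, so that its fold is one of signals. Set against the EXOs background level itself, MYCN in MVs was 1.20-fold higher. These were the only 2 of the 30 probe sets that passed the test between MVs and EXOs, which asked for an adjusted p under 0.05 and at least a 2-fold difference in limma, a linear model fitted across all 54613 probe sets that are not controls. Among all of those probe sets, 7.23% were called higher in MVs and 1.97% higher in EXOs. The 1 call of 30 in each direction was thus below the share on the whole array for MVs and close to it for EXOs. The median log2 difference of the 30 was -0.30, and that of all probe sets was -0.29.

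By direction alone, 11 of the 30 probe sets were higher in MVs and 19 in EXOs. On the array as a whole, 35.9% of probe sets had a positive difference and 63.8% a negative one. The KLF genes had 8 of 12 probe sets with the higher mean log2 signal in EXOs, and MYC, MYCN, MYCL and MAX had 11 of 18. Of the 7 genes with more than 1 probe set, 3 had all of theirs in 1 direction. The 3 MVs arrays lay above all 3 EXOs arrays for 3 members (MYCN 209757_s_at, MYC and KLF6 1555832_s_at) and below them for 3 (KLF4 221841_s_at, MYCN 242026_at and MYCL 215491_at), against 13.2% and 21.5% of all probe sets.

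**Figure D2:**
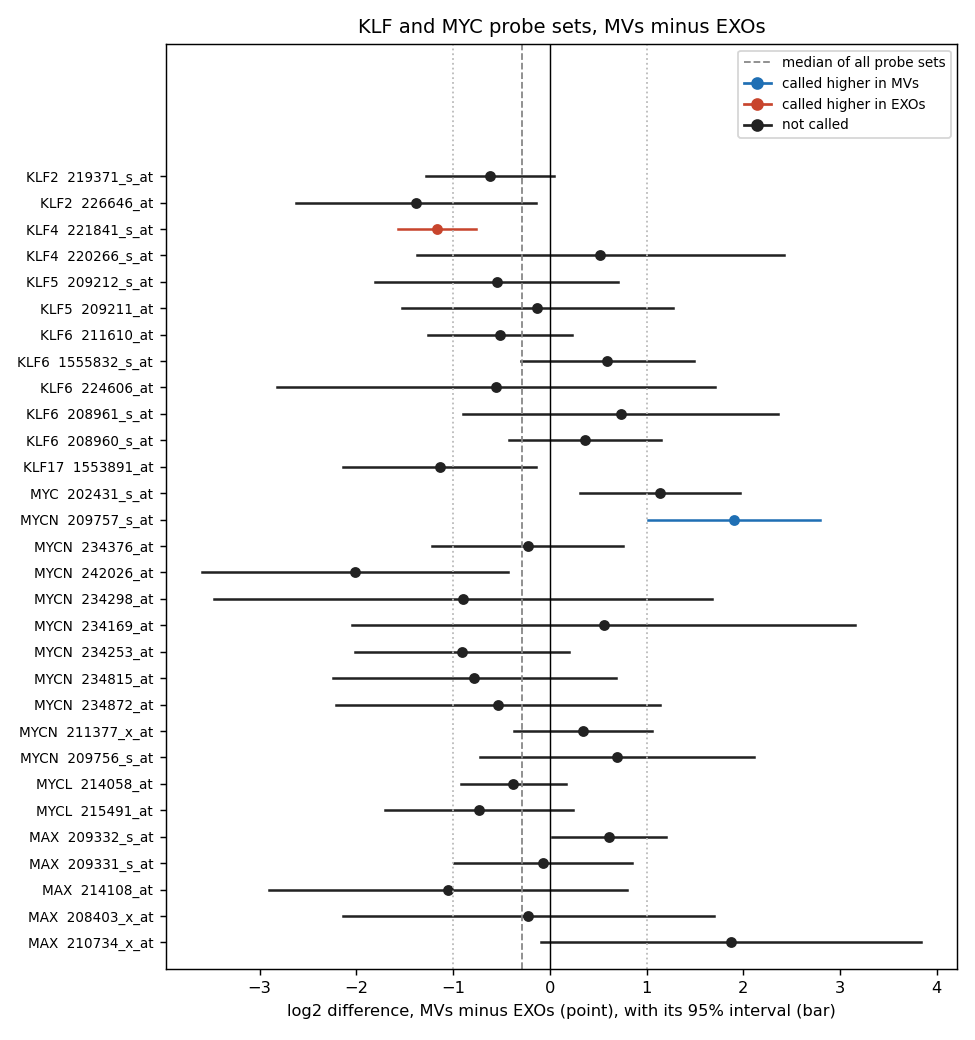
Log2 difference between MVs and EXOs for each of the 30 probe sets, with its 95% interval from limma on 3 arrays per group. A positive value is higher in MVs. Only KLF4 (221841_s_at, -1.17) and MYCN (209757_s_at, 1.91) are called, the dotted lines mark a 2-fold difference, and the dashed line marks the median of all probe sets at -0.29.

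KLF4 was the only KLF gene with a probe set above the background level. Its signal (probe set 221841_s_at) was 1303, 1118 and 871 in MVs, 2739, 2235 and 2338 in EXOs, and 2023, 2003 and 2204 in hESEVs. Every MVs array lay below every EXOs and hESEVs array, and all EXOs arrays lay above those of hESEVs by a small margin. The third MVs array, at 871, was under the MVs background level of 939. The means were 1097 ± 217 in MVs, 2438 ± 266 in EXOs and 2077 ± 110 in hESEVs (SD, n = 3 each), which is 1.17, 1.94 and 1.99 times the background level of the same vesicle type. The log2 difference between MVs and EXOs was -1.17 ± 0.17 (SE, limma adjusted p = 0.00399, n = 3 each), and it was -0.87 relative to the median of all probe sets. When every array was centred on its median, the difference was -0.93 with an adjusted p of 0.00895 in limma, which is under 2-fold, whereas under quantile normalization it was -1.76 (adjusted p = 0.000404), so the call depends on the scaling. It was also lost with the unpaired test that the methods name, once adjusted by Benjamini-Hochberg (adjusted p = 0.0514), and when both KLF4 probe sets were averaged (log2 difference -0.32).

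The tissue-restricted list moved in the same direction as KLF4, with a median log2 difference of -0.50 between MVs and EXOs and of -0.40 between MVs and hESEVs. The medians of all genes in these comparisons were -0.23 and -0.15. Of its 73 measured genes, 2 were called higher in MVs and 4 in EXOs, against 10.9% and 2.14% of all 19775 genes at 1 probe set each. At an unadjusted p under 0.05 in limma these were 2 and 21, against 17.2% and 18.2% of all genes. The 4 genes of this list with the smallest p values were KRT10, PGC, TTR and SFTPC. KRT10 (log2 2.41) was called higher in MVs, and PGC (-1.05), TTR (-2.35) and SFTPC (-1.90) were called higher in EXOs. The EXOs means of all 4, and the MVs means of PGC, TTR and SFTPC, were under the background level. The other KLF4 probe set, 220266_s_at, gave 120, 463 and 201 in MVs, 180, 64.1 and 326 in EXOs, and 371, 309 and 83.1 in hESEVs. All of these lie far under the background level and overlap between the vesicle types, and its log2 difference between MVs and EXOs was 0.52 (limma adjusted p = 0.712).

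MYCN, the family member that is highly expressed in embryonic and neural progenitor cells, had the opposite order. Its probe set 209757_s_at gave 1604, 1505 and 1401 in MVs, 638, 211 and 478 in EXOs, and 826, 1041 and 1071 in hESEVs. The 3 groups did not overlap, with MVs highest, hESEVs between and EXOs lowest, and only the MVs arrays were all above their background level. The means were 1503 ± 101 in MVs, 442 ± 216 in EXOs and 979 ± 134 in hESEVs (SD, n = 3 each). The log2 difference between MVs and EXOs was 1.91 ± 0.38 (SE, limma adjusted p = 0.0172, n = 3 each), or 2.20 relative to the median of all probe sets.

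The MYCN call was the less firm of the 2. It was lost when any 1 MVs array was left out, with a log2 difference of 1.86 and an adjusted p of 0.0696 without replicate 1, 1.90 and 0.0657 without replicate 2, and 1.96 and 0.0586 without replicate 3 in limma. The difference was thus about as large as with all arrays, and it remained when any EXOs array was left out. It was also lost when limma was fitted without a trend of the variance with signal (adjusted p = 0.0605) and with the unpaired test of the methods after adjustment (adjusted p = 0.118), at the same log2 difference. When the 10 MYCN probe sets were averaged the sign turned, to -0.19.

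The other 9 MYCN probe sets were dim, with means between 39.2 and 302 in MVs, between 30.4 and 421 in EXOs and between 10.7 and 250.3 in hESEVs. One of them, 242026_at, ran against 209757_s_at. It gave 42.0, 157 and 171 in MVs, 445, 443 and 375 in EXOs, and 311, 50.1 and 203 in hESEVs. Its MVs arrays lay below all EXOs arrays at signals under the background level, and the log2 difference of -2.01 did not pass the test (limma adjusted p = 0.102), although it did when signals were raised to a floor of 100. The 5 MYCN probe sets from a shared database entry ranged over the 9 arrays from 5.18 to 555.

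Since the arrays were scaled as a whole, the ratio of MYCN to KLF4 was also taken within each array, where scaling cancels. The log2 of MYCN over KLF4 was 0.30, 0.43 and 0.69 in MVs, -2.10, -3.41 and -2.29 in EXOs, and -1.29, -0.94 and -1.04 in hESEVs. MVs and EXOs differed by 3.07 in this ratio. This is a description with no test, since the pair was chosen for its opposite differences, which fixes that the groups stand apart. The ratio compares how 2 probe sets change and not how much of each mRNA there was, and MYCN was under the background level in EXOs.

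MYC itself, the most widely expressed member of its family, gave 627, 1094 and 585 in MVs, 406, 379 and 243 in EXOs, and 309, 93.0 and 334 in hESEVs. All MVs arrays were above all arrays of the other vesicle types, but only 1 of them, replicate 2, was above the background level of 939. The means were 769 ± 283 in MVs, 343 ± 86.9 in EXOs and 246 ± 132.8 in hESEVs (SD, n = 3 each). Every mean was under its background level, so the differences are those of dim signals. The log2 difference between MVs and EXOs was 1.14 ± 0.36 (SE, limma adjusted p = 0.0813, n = 3 each) and thus not called. It was called under quantile normalization (1.27, adjusted p = 0.0483), with centring on the median (1.38, adjusted p = 0.0427) and when only probe sets brighter than the median were tested (adjusted p = 0.0362), each in limma.

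MAX, the dimer partner that all MYC proteins need to bind DNA, gave 1492, 1382 and 884 in MVs, 838, 633 and 970 in EXOs, and 920, 832 and 809 in hESEVs with its brightest probe set, 209332_s_at. The first and second MVs arrays were the highest of all 9, and the third lay within the range of the other vesicle types. The log2 difference between MVs and EXOs was 0.61 (95% interval 0.020 to 1.20, limma adjusted p = 0.166, n = 3 each), and that between MVs and hESEVs was 0.52 (adjusted p = 0.225). The other 4 MAX probe sets had means between 168 and 597 in MVs, between 105 and 673 in EXOs and between 178 and 559 in hESEVs, and none was called.

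MYCL, which can take the place of MYC in reprogramming, had a mean above the background level in each vesicle type. Probe set 214058_at gave 998, 1418 and 831 in MVs, 1137, 1343 and 1682 in EXOs, and 1442, 1329 and 1162 in hESEVs. The groups overlapped, and the means of 1083 in MVs, 1387 in EXOs and 1311 in hESEVs were 1.15, 1.10 and 1.26 times the background level. The log2 difference between MVs and EXOs was -0.38 (95% interval -0.92 to 0.17, limma adjusted p = 0.335, n = 3 each), so that the interval includes no difference and its lower bound falls short of 2-fold. The dimmer MYCL probe set, 215491_at, had means of 228 in MVs, 378 in EXOs and 361 in hESEVs, and its MVs arrays lay below all EXOs arrays without a call (adjusted p = 0.296).

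The other KLF genes were under the background level. KLF17, which marks the naive state of human pluripotent cells, gave 208, 288 and 429 in MVs, 399, 827 and 828 in EXOs, and 656, 404 and 411 in hESEVs. Its lowest signals were in MVs, with an overlap at the third MVs array, and the log2 difference between MVs and EXOs of -1.14 was not called (limma adjusted p = 0.134, n = 3 each).

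KLF2, known for its role in blood vessel and lymphocyte quiescence, had signals of 738, 503 and 384 in MVs, 859, 886 and 680 in EXOs, and 737, 560 and 1053 in hESEVs with 219371_s_at. The groups overlapped, and the log2 difference between MVs and EXOs was -0.62 (limma adjusted p = 0.202). Its other probe set, 226646_at, gave 322, 475 and 165 in MVs, 1211, 402 and 921 in EXOs, and 369, 349 and 381 in hESEVs, with a log2 difference of -1.39 between MVs and EXOs (adjusted p = 0.140). Both KLF2 probe sets were thus lower in MVs on average, and neither passed the test.

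KLF5, a factor of proliferating epithelia, averaged 407 ± 156 in MVs, 657 ± 355 in EXOs and 580 ± 56.0 in hESEVs (SD, n = 3 each) with 209212_s_at, and its EXOs arrays ran from 252 to 912. The spread among EXOs arrays was larger than the difference from MVs (log2 -0.55, limma adjusted p = 0.541). The dimmer KLF5 probe set, 209211_at, had means of 199 in MVs, 215 in EXOs and 205 in hESEVs. Its log2 difference between MVs and EXOs was -0.13 (limma adjusted p = 0.913). KLF6, a broadly expressed factor induced by growth signals and injury, averaged 652 ± 87.0 in MVs, 991 ± 447 in EXOs and 704 ± 91.7 in hESEVs with 211610_at, and 1 EXOs array at 1489 was above the background level. Its 5 probe sets did not move together, as 3 were higher in MVs and 2 in EXOs, with log2 differences of -0.56 to 0.73 and adjusted p values of 0.330 to 0.746 in limma.

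The fractions were next set against the non-fractionated hESEVs, which hold both. These comparisons share the 3 hESEVs arrays, and no member passed the limma test in either. By the unpaired test of the methods without adjustment, 0 members passed between MVs and hESEVs. Of all 54613 probe sets, 3419 were called higher in MVs and 1744 higher in hESEVs by that test. Between EXOs and hESEVs, 1 member was higher in EXOs and 1 higher in hESEVs, against 660 and 1667 of all 54613 probe sets. Between MVs and hESEVs, 4.25% of all probe sets were called higher in MVs and 1.05% higher in hESEVs (6.57% and 1.13% of genes at 1 probe set each), and 5 of the 30 members had an unadjusted p under 0.05 in limma, as did 22% of all probe sets. The MVs arrays lay above all hESEVs arrays for 2 members (MYC and MYCN 209757_s_at) and below them for 2 (KLF4 221841_s_at and MAX 214108_at), against 12.1% and 16.8% of all probe sets. Between EXOs and hESEVs, 0.103% of all probe sets were called higher in EXOs and 1.95% higher in hESEVs (0.091% and 3.04% of genes), and 3 members had an unadjusted p under 0.05, as did 11.6% of all probe sets. The EXOs arrays lay above all hESEVs arrays for 4 members (KLF4 221841_s_at, KLF2 226646_at, MYCN 242026_at and MYCN 234815_at) and below them for 3 (MYCN 209757_s_at, MYCN 211377_x_at and KLF6 208961_s_at), against 8% and 8.65% of all probe sets.

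KLF4 in MVs was 1.92-fold lower than in hESEVs, with a log2 difference of -0.94 ± 0.16 (SE, limma adjusted p = 0.00389, n = 3 each), which missed the call only by its size. It passed 2-fold under quantile normalization (-1.15) and when MVs replicate 1 was left out (-1.07). In EXOs, KLF4 exceeded hESEVs by 0.23 on the log2 scale (95% interval -0.12 to 0.57, limma adjusted p = 0.653). A 2-fold difference between EXOs and hESEVs lies outside this interval, and under quantile normalization the difference was 0.61 (adjusted p = 0.0606).

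The MYCN mean was above that of hESEVs in MVs and below it in EXOs, and neither difference was called. MVs were 0.63 higher on the log2 scale (95% interval -0.13 to 1.38, limma adjusted p = 0.319), and EXOs were lower, at -1.28 (95% interval -2.04 to -0.52, adjusted p = 0.102). Without EXOs replicate 1, the EXOs difference was -1.62 and was called (limma adjusted p = 0.0272), and it was called as well when only probe sets brighter than the median were tested (adjusted p = 0.0415). The MYC signals, with means under the background level in both, differed by a log2 of 1.79 ± 0.53 between MVs and hESEVs (SE, limma adjusted p = 0.0714), with a difference of 1.20 when hESEVs replicate 2, the lowest array, was left out. It was called with centring on the median (2.01, adjusted p = 0.0406) and among probe sets brighter than the median (adjusted p = 0.0317). For 8 of the 9 genes, and for all 4 above the background level, the hESEVs mean lay between those of MVs and EXOs, and the exception was MYC, whose hESEVs mean was the lowest.

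KLF6 gave the largest difference between EXOs and hESEVs among the members, at a dim probe set. Its 208961_s_at gave 208, 18.2 and 40.8 in MVs, 57.9, 18.3 and 30.2 in EXOs, and 373, 306 and 123 in hESEVs. All EXOs arrays were below all hESEVs arrays, with 2 of the 3 under the floor of 32. The log2 difference of -2.63 was not called (limma adjusted p = 0.136), and all of these signals were under the background level. It was called when MVs replicate 1 was left out of the joint fit, which changes only the shared estimate of the spread.

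**Figure D3:**
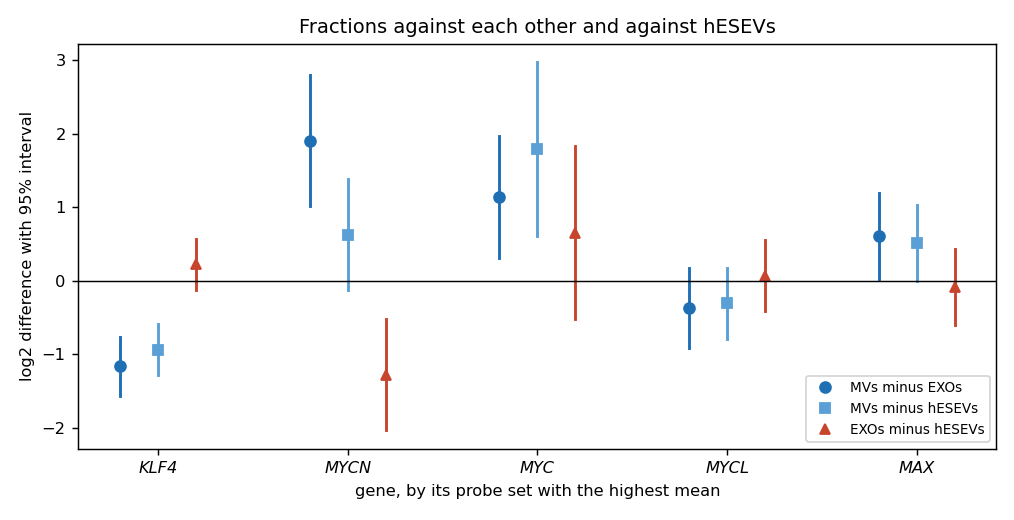
Log2 difference with its 95% interval for KLF4, MYCN, MYC, MYCL and MAX, each by its brightest probe set. Circles are MVs minus EXOs, squares MVs minus hESEVs and triangles EXOs minus hESEVs (3 arrays per group, limma). KLF4 is below 0 in both comparisons of MVs, and MYCN is above 0 in MVs minus EXOs and below 0 in EXOs minus hESEVs.

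For the 4 members above the background level, the genes with the most similar pattern over the 9 arrays were looked up among 5373 genes that were also above it. These correlations are descriptions, since the arrays fall into 3 groups and share scaling. KLF4 was most like SLC25A20, the carnitine-acylcarnitine carrier of mitochondria (Pearson r = 0.974), and PTCH1, the Hedgehog receptor (0.974). MYCN was most like POLE4, a subunit of DNA polymerase epsilon (0.988), and COX7B, a subunit of cytochrome c oxidase (0.985). MYCL was most like DCN, the proteoglycan decorin (0.931), and ARHGAP35 (0.891). MAX was most like PBX3, a homeobox factor (0.928), and DDX27, an RNA helicase (0.912).

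Related genes were taken from fixed lists, 1 probe set per gene, and set beside all 19775 genes, of which 10.9% were called higher in MVs than in EXOs and 2.14% higher in EXOs. At an unadjusted p under 0.05 the shares were 17.2% and 18.2%. The median log2 difference of all genes was -0.23. Many list genes named below were under the background level in EXOs, and their log2 values are differences of signals. They include SP3, RUVBL1, RUVBL2, ACTL6A, FBL, ODC1, LIN28B, JUND, ID1, ID3, IER2, TERF1, THY1 and EPCAM. Among 20 other KLF and SP factors, which bind similar GC-rich elements, 16 had the higher mean log2 signal in EXOs, as did 63.8% of all probe sets. Their median was -0.67, beside -0.50 for the tissue-restricted genes. Only SP3 was called, and it was higher in MVs (log2 2.05, limma adjusted p = 0.00140). SP3 averaged 1224 ± 182 in MVs, 297 ± 59.2 in EXOs and 689 ± 92.6 in hESEVs (SD, n = 3 each). KLF9 had a log2 difference of -0.70 with an adjusted p of 0.0305 in limma, short of 2-fold, and KLF13 (-1.12, adjusted p = 0.0506) and KLF7 (-0.93, adjusted p = 0.0572) were not called. In each vesicle type, 3 of the 20 were above the background level. At an unadjusted p under 0.05 in limma, 2 of the 20 were higher in MVs and 7 in EXOs.

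Partners and regulators of MYC and MAX had 8 of 26 measured genes called higher in MVs by limma, none higher in EXOs (5 at an unadjusted p under 0.05) and a median of 0.44. RUVBL1 (log2 3.42) and RUVBL2 (3.02), the paired ATPases of chromatin complexes that MYC recruits, and ACTL6A (1.88), an actin-related subunit of such complexes, were among them. HUWE1, a ubiquitin ligase that acts on MYC proteins, averaged 55209 ± 4922 in MVs, 9189 ± 1165 in EXOs and 28909 ± 313 in hESEVs (SD, n = 3 each), with a log2 difference between MVs and EXOs of 2.59. Its probe set ends in _x_at and may report other transcripts. USP28, MLX, TRRAP and SMARCB1, named after their values were seen, made up the 8.

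Genes known as MYC targets had 16 of 24 measured members called higher in MVs by limma, none higher in EXOs (1 at an unadjusted p under 0.05), and a median of 2.39. NPM1, an abundant nucleolar protein, averaged 99924 ± 1487 in MVs, 16015 ± 523 in EXOs and 36190 ± 1037 in hESEVs (SD, n = 3 each), a log2 difference between MVs and EXOs of 2.64. FBL, the methyltransferase that modifies ribosomal RNA, differed by 4.00, the mitochondrial chaperone HSPD1 by 2.78 and ODC1, the first enzyme of polyamine synthesis, by 2.59. Summed over the list, the signal per array lay between 231864 and 245837 in MVs, between 40196 and 47243 in EXOs and between 82387 and 86059 in hESEVs. Of the 24 genes, 19 were above the background level in MVs, 8 in EXOs and 14 in hESEVs. Very bright probe sets of any kind were more frequent on MVs arrays than on those of EXOs or hESEVs. The shares over all genes take no account of brightness, whose part in this and the other lists was not tested. In comparison with hESEVs, 13 of the 24 were higher in MVs, where 6.57% of all genes were, and 5 were lower in EXOs (FBL, NPM1, NCL, TFRC and SRM, named after their values were seen), where 3.04% of all genes were.

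Partners in reprogramming and naive pluripotency had 7 of 20 measured genes called higher in MVs by limma, none higher in EXOs (3 at an unadjusted p under 0.05) and a median of 0.92. LIN28A (log2 2.77) and LIN28B (2.00), which block maturation of let-7 microRNAs, DPPA4 (2.26) and NANOG (1.54) were among those with the smallest p values. SOX2, used together with KLF4 and MYC in reprogramming and named after its values were seen, averaged 3655 ± 725 in MVs, 1044 ± 412 in EXOs and 1315 ± 359 in hESEVs (SD, n = 3 each), a log2 difference between MVs and EXOs of 1.88 (limma adjusted p = 0.00818). KLF4 and SOX2 thus lay on opposite sides of 0 between the fractions, and both passed the test. The SOX2 mean was under the background level in EXOs, so that its difference is one of signals.

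Immediate early genes, which share with KLF4, KLF6 and MYC a short-lived mRNA induced by growth factors, had 6 of 26 measured genes called higher in MVs and 1 higher in EXOs, with a median of 0.67. At an unadjusted p under 0.05 in limma these were 11 and 4. ID3 (log2 3.66), ID1 (3.60), JUND (1.49) and IER2 (1.17) were higher in MVs. EGR1, a zinc finger factor named after its values were seen, was the 1 gene higher in EXOs, with means of 636 ± 82.3 in MVs, 1326 ± 265 in EXOs and 1007 ± 221 in hESEVs (SD, n = 3 each) and a log2 difference between MVs and EXOs of -1.05 (limma adjusted p = 0.0165). Its means had the same order over the vesicle types as those of KLF4, lowest in MVs and highest in EXOs, but were above the background level in EXOs only. The tissue-restricted genes PGC, TTR and SFTPC had this order of means as well.

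**Figure D4:**
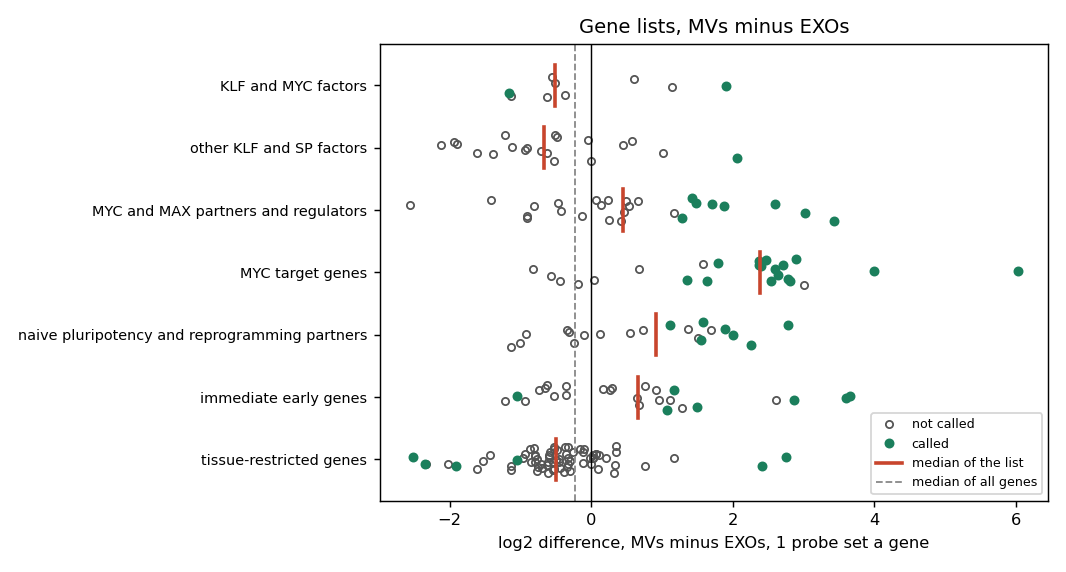
Log2 difference between MVs and EXOs for the genes of each list, 1 probe set per gene. Filled points passed the test, open points did not, short red lines are list medians, and the dashed line is the median of all genes at -0.23. The MYC target genes have a median of 2.39, the other KLF and SP factors one of -0.67 and the tissue-restricted genes one of -0.50.

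Markers that check the vesicles' origin gave a higher signal in MVs for 10 of 12 embryonic stem cell markers, at a median log2 difference from EXOs of 2.03. Those with the smallest p values were TERF1 (log2 2.99), LIN28A (2.77), DPPA4 (2.26) and L1TD1 (2.53). Among germ layer and trophectoderm markers, CXCR4 (-1.08), HAND1 (-1.29) and EOMES (-1.41) of 22 were called higher in EXOs by limma and none higher in MVs (1 at an unadjusted p under 0.05), with a median of -0.62, and GATA3 differed by -0.61 without reaching 2-fold. The means of HAND1 and EOMES were under the background level in every vesicle type, and that of CXCR4 was under it in MVs. Fibroblast and epithelial markers had 6 of 18 called higher in MVs by limma and none higher in EXOs, with 8 and 4 at an unadjusted p under 0.05 and a median of 0.08. KRT18 (2.11), EPCAM (3.41), THY1 (2.66) and KRT19 had the smallest p values, and all 3 EXOs arrays were under the floor of 32 for KRT19, so that no value is given for it. Summed over the germ layer list, signals lay between 9189 and 9347 in MVs and between 13862 and 15478 in EXOs. In hESEVs they lay between 11309 and 12303, which gives the same order as for KLF4. The summed signals of the tissue-restricted genes and of the other KLF and SP factors had this order too. Of the 22 germ layer and trophectoderm genes, only 1 was above the background level in MVs and 2 each in EXOs and hESEVs. The part of such cells in the KLF4 difference was not tested.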

How the data were processed

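Affymetrix HG-U133 Plus 2.0 arrays, 9 in all and 3 for each of MVs, EXOs and hESEVs of H9 cells, were grouped by the sample titles. The authors made the deposited intensity values, linear and 1 for each probe set, with MAS5 (version not given in the sources used here), and set every array to a target of 500. Probe intensities were not used here, so the study's RMA normalization was not repeated, and a dim MAS5 signal varies more than a bright one. With RMA and its own thresholds, the paper reports KLF4 mRNA as higher in EXOs than in MVs. Precision is limited by 3 arrays per group.

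Signals under 32 were raised to 32 and log2 was taken. The 62 control probe sets were left out, and no member was filtered out. Tests were two-sided in limma 3.58.1 (R 4.3.3, lmFit, then eBayes with its trend option), on the 6 arrays of MVs and EXOs, and on all 9 for comparisons with hESEVs, with Benjamini-Hochberg adjustment over all 54613 probe sets. The code was tested on simulated MVs and EXOs arrays, in which 200 of the brighter probe sets were changed. Of 100 changes of log2 1.5 it called 28%, and of 100 changes of log2 3 it called 54%, with 3 false calls. Far more probe sets were called in the data, so these shares do not carry over directly. A member without a call may still differ. Genes came from the array annotation (41091 probe sets with 1 gene, 1801 with several and 11721 with no single gene), and 41037 of the IDs were found in RefSeq (GRCh38.p14), a table that served for names alone, without any symbol updated. For lists and levels a gene was represented by whichever probe set had the highest mean log2 signal on the 9 arrays.

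Every probe set of the 9 genes is reported. Of each of 9 lists, up to 4 genes with the smallest p between MVs and EXOs are named, and others are marked as named after their values were seen. The members and lists were chosen with earlier results of these data known. Same-numbered arrays showed no shared deviation over all probe sets, so arrays were not paired. The paper names 3 hESC cultures as the source of these MVs and EXOs, so the fractions may share a culture. Which arrays would then belong together cannot be told from this check.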

Additional observations from a re-analysis of the deposited data

How the results depend on the processing

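Alternatives covered scaling, the floor, a filter on dim probe sets, the test, how probe sets stand for a gene, the arrays in the fit, the replicate block and leaving out each array. The 2 calls between MVs and EXOs were 1 in each direction. The number called higher in MVs was 2 under quantile normalization, centring on the median, the filter on dim probe sets, the methods' t-test without adjustment and limma without adjustment (MYC joined MYCN each time). It was 0 without the trend, with the methods' t-test after Benjamini-Hochberg adjustment, with probe sets of a gene averaged and without the probe sets ending in _s_at or _x_at. The number called higher in EXOs was 2 with a floor of 100 or the unadjusted methods' t-test, 4 with unadjusted limma, and 0 with median centring, the adjusted methods' t-test, averaging, or without the shared probe sets. Leaving out 1 array gave 0 to 1 higher in MVs.

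Between MVs and hESEVs, where no member was called, 1 was higher in MVs with median centring, the filter and unadjusted limma (MYC), 1 was higher in hESEVs with quantile normalization (KLF4) and 2 with unadjusted limma, and leaving out 1 array gave 0 to 2 higher in hESEVs. Between EXOs and hESEVs, also without a call, 1 was higher in EXOs with a floor of 1, the unadjusted methods' t-test and unadjusted limma (MYCN 234815_at). For those higher in hESEVs the number was 1 with the filter and the unadjusted methods' t-test, 2 with unadjusted limma, and 0 to 1 on leaving out 1 array.

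Some directions turned when all probe sets of a gene were averaged. Averaged log2 differences were 0.12 for KLF6 and -0.19 for MYCN between MVs and EXOs, -0.041 for MYCN and -0.058 for MAX between MVs and hESEVs, and -0.11 for KLF4, 0.073 for KLF5, -0.40 for KLF6 and 0.15 for MYCN between EXOs and hESEVs. KLF6 between MVs and hESEVs was 0.025 under quantile normalization and 0.10 with median centring, and KLF5 between EXOs and hESEVs was 0.0038 after a shift to the spike-in controls. On leaving out 1 array, EXOs against hESEVs ran from -0.36 to 0.57 for KLF5, -0.23 to 0.081 for MAX, -0.079 to 0.20 for MYCL and -0.13 to 0.32 for KLF2. None of these differences was called. Without shared probe sets, 15 of the 30 members were tested and 0 called. The probe sets that stand for KLF2, KLF4, KLF5, MYC, MYCN and MAX were not among them, and KLF4 and MYC had none left.

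Over all probe sets, calls between MVs and EXOs numbered 5027, against 3094 with the adjusted methods' t-test, 9197 with unadjusted limma, 2812 at 1 probe set per gene, 2205 with averaging and 2350 without shared probe sets. Between MVs and hESEVs they numbered 2892, against 1475 with quantile normalization, 5163 with the unadjusted methods' t-test, 6583 with unadjusted limma, 1725 at 1 per gene, 1106 averaged and 1213 without shared ones. Between EXOs and hESEVs they numbered 1120, against 2327 and 329 with the methods' t-test before and after adjustment, 3593 with unadjusted limma, 682 at 1 per gene, 464 averaged, 304 without shared ones and 739 with the 6 arrays of these groups alone. Scaling moved the share of calls that were higher in MVs: 78.6% of those between MVs and EXOs and 93.4% with median centring, and 80.2% of those between MVs and hESEVs, 67.3% with quantile normalization and 93.5% with median centring. Of calls between EXOs and hESEVs, 5% were higher in EXOs and 18.8% with quantile normalization. Median centring moved the median of all probe sets between MVs and EXOs to -0.057, against -0.29.

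With the replicate number as a block, 1 member was called in each direction between MVs and EXOs, KLF4 at an adjusted p of 0.00588 and MYCN at 0.0212 in limma, and the block changed no member's call. Deviations of same-numbered arrays between groups correlated from -0.011 to 0.013, so the numbers were not taken as pairs. Except where stated, the cause of a changed value was not tested. Dim signals limit most members: 26 of 30 probe sets had no mean above the background level.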
